A study of Mus musculus with 43 samples.

Results

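The genes described here are 10 members of the Notch signalling pathway in brain endothelial cells (EC), the cells that line blood vessels: the receptors Notch1 and Notch4, the ligands Dll4, Dll1, Jag1 and Jag2, the secreted modulator Egfl7, the transcription factor Rbpj, and the target genes Hey1 and Hes1. They were chosen by symbol, and 10 of the 54532 genes of the count table carried these symbols. All 10 were among the 29120 genes that reached at least 0.5 CPM (counts scaled to library size) in at least 1 library and were tested. RNA was sequenced from EC that were sorted from the cortex (21 libraries) and the hippocampus (22 libraries) of unmanipulated mice aged 2 months, as cells positive for CD31 and negative for CD45 and CD11b. The mice belonged to 7 inbred strains: the wild-derived CAST/EiJ and WSB/EiJ, with 12 libraries, and the long-inbred C57BL/6J, A/J, NOD/ShiLtJ, 129S1/SvImJ and DBA/2J, with 31 libraries. Of the 43 libraries, 16 were female and 27 were male, and the strains had 4 male libraries each, except 129S1/SvImJ with 3. Among the female libraries, 6 were 129S1/SvImJ, 1 was A/J, 1 was DBA/2J, and C57BL/6J, CAST/EiJ, NOD/ShiLtJ and WSB/EiJ had 2 each. Titles also carry the tag high or low, whose meaning the labels do not give. Of the male libraries, 14 were tagged high and 13 low. The female libraries were all tagged high except 1 of 129S1/SvImJ. No label ties libraries to individual mice, so the p-values below measure only the spread between libraries.

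Notch signalling runs between touching cells. A ligand of the Delta-like (Dll) or Jagged (Jag) family on one cell binds a Notch receptor on its neighbour, Adam10 and then gamma-secretase cut the receptor, and the freed intracellular domain enters the nucleus, where it joins Rbpj and Mastermind-like proteins and switches on targets of the Hes and Hey families. In blood vessels, Dll4 and Notch1 take part in the choice between tip and stalk cells during sprouting and in arterial identity, Notch4 is largely restricted to endothelium, Jag1 can oppose Dll4, and Notch3 is the receptor of the mural cells, the pericytes and smooth muscle cells around the endothelium. Egfl7 is secreted by EC, binds Notch receptors and hosts the endothelial microRNA miR-126 in an intron.

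Egfl7 (ENSMUSG00000026921) lies on the plus strand at chr2:26580014-26593120 of GRCm38 (mm10). The other members that passed a test below are Notch1 (ENSMUSG00000026923, minus strand, chr2:26457903-26516663), Dll4 (ENSMUSG00000027314, plus strand, chr2:119325784-119335962) and Hes1 (ENSMUSG00000022528, plus strand, chr16:30064384-30067796). Upstream of 1 start site of Egfl7, the RefSeq reference of build GRCm38.p6 holds the core motif bound by Rbpj, TGGGAA, at 162 bases before the start. The stretch chr2:26580891-26580956, plus strand, is shown because Egfl7 and Rbpj are both members and Egfl7 differed in 2 of the comparisons below; capitals mark the motif.
Egfl7 upstream stretch: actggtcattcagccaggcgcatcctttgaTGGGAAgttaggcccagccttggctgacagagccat
TGGGAA was searched on both strands in the 250 bases before each RefSeq start. It was present in 7094 of 32851 such windows (21.6%) and in 3 of the 12 windows that matched members (25%), those of Egfl7 and Rbpj. A match of this length is a description of the letters only. RefSeq windows matched 8 of the 10 members. The count table has an entry for each of the microRNA genes Mir126a and Mir126b, which lie within the bounds of Egfl7. Mir126a is on the strand of Egfl7, its host, while Mir126b is on the opposite strand. A mature sequence of each is shown with the seed, bases 2 to 8, in capitals.
mmu-miR-126a-3p: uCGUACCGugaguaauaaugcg
mmu-miR-126b-3p: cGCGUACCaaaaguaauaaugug
The first lies on the plus strand at chr2:26591402-26591423 and the second on the minus strand at chr2:26591363-26591385, and the seeds differ. Both Mir126a and Mir126b had 0 counts in all 43 libraries. These counts do not show that the microRNAs were absent from the cells. Reads of the Mir126a precursor that fall inside Egfl7 cannot be told apart from reads of the host gene.

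Library totals ranged from 1626534 to 49372356 counts (median 5790701). They differed by sex, from 1626534 to 10567966 in the male and from 2731954 to 49372356 in the female libraries. Every female library except those of WSB/EiJ and of C57BL/6J cortex was deeper than all male libraries. In 58 pairs of libraries of 1 strain and sex, none agreed within sampling noise, so all were kept. All 15 endothelial markers were detected, from Emcn at 146 CPM to Flt1 at 5200 CPM on average. Other cell types were also present: the 10 astrocyte and 10 pericyte markers were all detected, with Slc1a2 at 3363 and Rgs5 at 3531 CPM, whereas 5 of 10 microglial markers reached 1 CPM. The share of counts from Gm23935, Gm42418 and Gm26917, annotated genes that overlap ribosomal RNA repeats, ranged from 1.59% to 12.1% in the female libraries and from 13% to 29.3% in the male libraries, with no overlap. In the female libraries it fell into 11 at 1.59% to 4.05% and 5, from NOD/ShiLtJ, CAST/EiJ and A/J, at 9.66% to 12.1%. In sorted bulk samples, fewer cells of a type and less RNA per cell cannot be told apart.

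Per kilobase of exon, Egfl7 had the highest mean of the members, with 57.5 ± 48.1 CPM per kb (SD, n = 43). Notch1, at 45.5 ± 12.9 CPM per kb, was the leading receptor, and Notch4 stood at 24.2 ± 6.48 CPM per kb. Among the ligands, Jag2 (41.1 ± 9.97 CPM per kb) and Dll4 (36.9 ± 19.6) stood above Jag1 (17.2 ± 6.84) and Dll1 (2.99 ± 4.76). These values place the endothelial receptor Notch1 and the ligands Jag2 and Dll4 close together. The targets Hes1 and Hey1 had 24.5 ± 17.2 and 17.6 ± 8.33 CPM per kb, and Rbpj, which every canonical Notch signal needs, had the lowest mean of the members at 2.83 ± 1.67 CPM per kb, although Dll1 exceeded it in 16 of 43 libraries only. Of the receptors outside the list, Notch3 had 36.5 ± 18.9 and Notch2 had 5.62 ± 2.61 CPM per kb. In this order of 12 genes, the gap between neighbours was larger than both SDs in 1 place, Jag1 over Notch2, where Jag1 was higher in 42 of 43 libraries. Egfl7 exceeded Notch1 in 15 libraries only, so its place rests on a minority of the libraries. Its mean was highest in the female libraries with a lower rRNA-like share, as given below. By the longest transcript instead of all exons, Egfl7 and Notch1 still led, at 110 and 68.2 CPM per kb, and Rbpj stood above Dll1 and Notch2, at 6.58 CPM per kb.

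**Figure D1:**
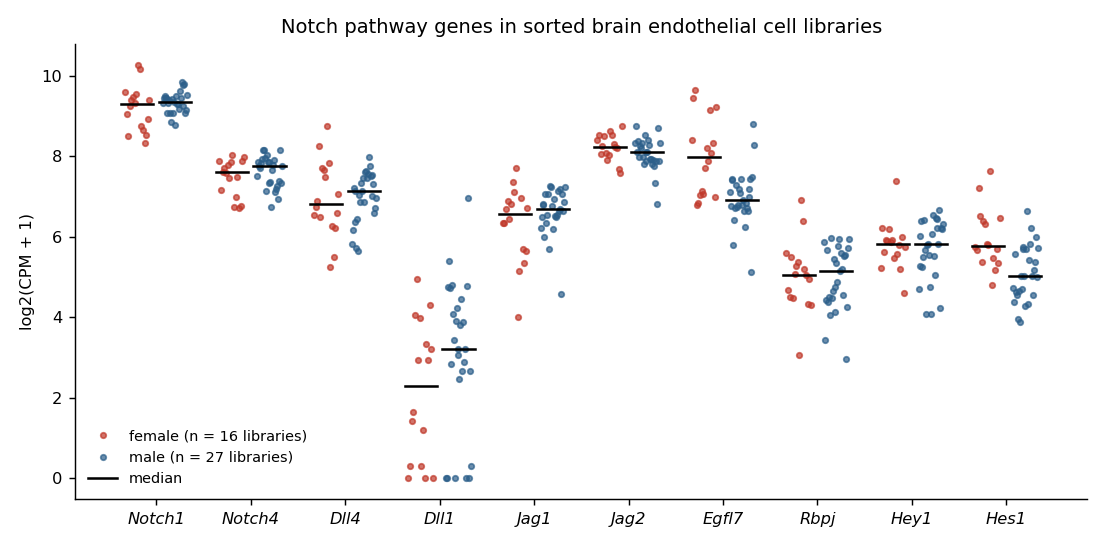
Level of each member in every library as log2(CPM + 1), with the 16 female libraries in red, the 27 male libraries in blue and the median of each sex as a line. Notch1 stayed between 323 and 1236 CPM and Notch4 between 103 and 285 CPM, whereas Egfl7 ran from 33.7 to 803 CPM.

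The members differed in how much they varied. Between the lowest and the highest library, Notch4 ranged 2.76-fold (103 to 285 CPM), Notch1 3.83-fold (323 to 1236) and Jag2 3.84-fold (112 to 429). The other members with counts in every library ranged from 10.4-fold for Hey1 to 23.8-fold for Egfl7; Dll4 ranged 11.8-fold (36.7 to 433 CPM). Dll1 had 0 counts in 8 libraries and 3 or fewer in 12, of which 6 were female and 6 male, and reached 124 CPM in another, so no fold between its extremes is given.

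Whether strains differ was tested in the 27 male libraries, where each strain has a like number of samples. Dll4 and Egfl7 differed between strains, and the other 8 members did not pass the test. For comparison, 1.76% of the 27824 genes tested passed. Dll4, the main endothelial Delta-like ligand, was lowest in DBA/2J, where the cortex libraries had 49.2 (high) and 51.5 CPM (low) and the hippocampus libraries 85.4 and 80.9 CPM. In CAST/EiJ the same 4 kinds of library had 216, 189, 251 and 175 CPM. Each CAST/EiJ library was above each DBA/2J library. Between them lay C57BL/6J (103 ± 46.9 CPM, SD, n = 4), 129S1/SvImJ (107 ± 14.6, n = 3), A/J (136 ± 18.6), WSB/EiJ (163 ± 25.7) and NOD/ShiLtJ (170 ± 38.3), so that means ran from 66.7 ± 19.1 in DBA/2J to 208 ± 33.5 in CAST/EiJ. Neighbours in this order were farther apart than both their SDs in 2 places, 129S1/SvImJ and A/J, and A/J and WSB/EiJ, and their libraries overlapped in both (94.7 to 123, 114 to 159 and 129 to 184 CPM). The strain difference of Dll4 passed with an adjusted p of 0.00326 (edgeR's quasi-likelihood test, Benjamini-Hochberg adjustment). The female libraries, which this test did not use, had 227 and 433 CPM in WSB/EiJ, 302 in A/J, 201 and 179 in CAST/EiJ, 88.2 and 207 in NOD/ShiLtJ, 117 in DBA/2J, 106 and 92.5 in C57BL/6J, and 36.7 to 133 (median 74.6) in 129S1/SvImJ. There the lowest median was that of 129S1/SvImJ, not DBA/2J. In the male libraries the rRNA-like share averaged 15.2% in DBA/2J, the strain lowest in Dll4. It averaged 21.4% in CAST/EiJ, 21.2% in NOD/ShiLtJ and 20.8% in WSB/EiJ, the strains highest in Dll4. In the strains between them it ran from 13.7% to 19.3% (A/J), 13.1% to 20.5% (C57BL/6J) and 13% to 23.3% (129S1/SvImJ). With this share as a covariate, the adjusted p of Dll4 was 0.162; its part in the result was not tested.

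Egfl7 had 446, 309 and 177 CPM in the male 129S1/SvImJ libraries of cortex high, hippocampus high and hippocampus low. In WSB/EiJ it had 173 and 144 CPM in cortex and 33.7 and 125 CPM in hippocampus. All 3 libraries of 129S1/SvImJ were above every male library of the other strains, the lowest by little, and the strain means were 311 ± 134 CPM in 129S1/SvImJ and between 96.9 ± 16.2 (CAST/EiJ) and 146 ± 30.05 CPM (C57BL/6J) in the others. The adjusted p was 0.00204, but without the 129S1/SvImJ cortex high library it was 0.428 (edgeR's quasi-likelihood test), so 1 library decides this call. The female libraries, not used in this test, had another order. Their Egfl7 means were 803 CPM in DBA/2J (n = 1), 515 CPM in C57BL/6J (n = 2) and 353 CPM in 129S1/SvImJ (n = 6), and lower in the other strains.

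**Figure D2:**
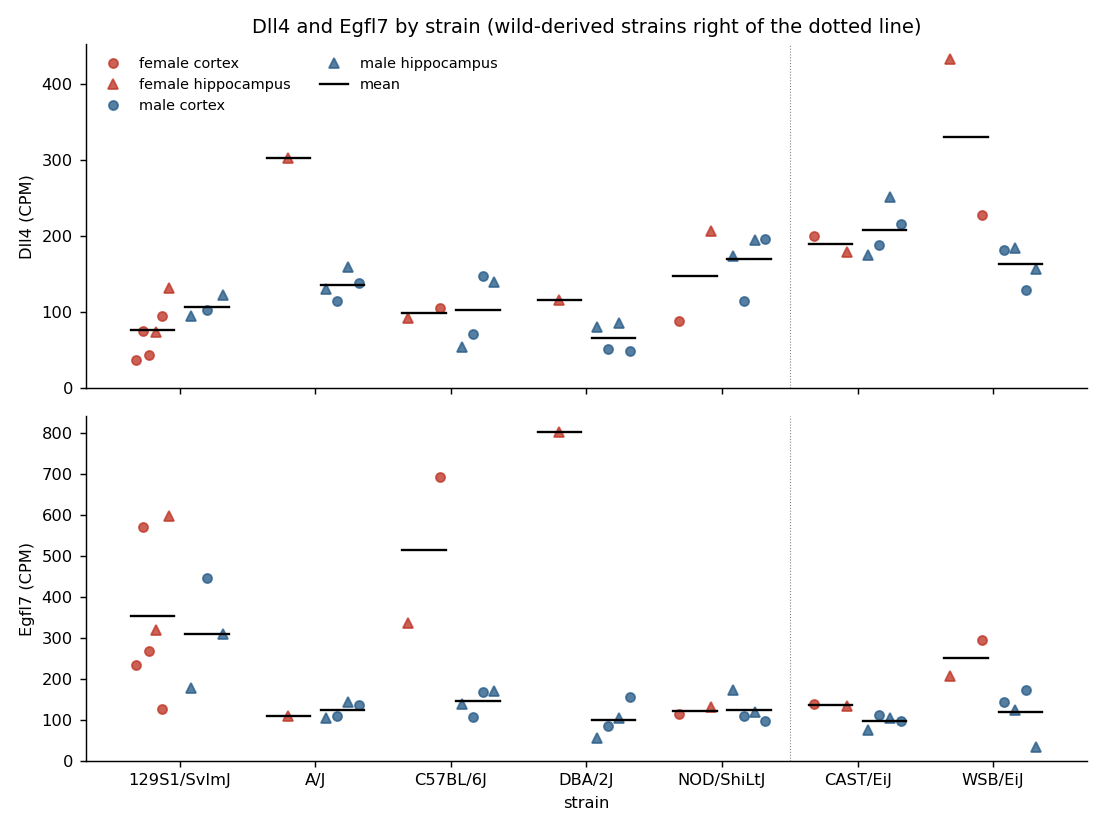
Dll4 and Egfl7 in CPM in each library, by strain, with female libraries in red, male libraries in blue, cortex as circles, hippocampus as triangles and the mean of each strain and sex as a line. Male Dll4 means ran from 66.7 CPM in DBA/2J to 208 CPM in CAST/EiJ, and male Egfl7 stood highest in 129S1/SvImJ at 311 CPM.

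The other members did not pass the test between male strains. Notch1 lay between 556 ± 94.1 CPM in A/J and 822 ± 145 in WSB/EiJ (adjusted p = 0.918, edgeR); over all 43 libraries it passed, with an adjusted p of 0.00929 and, with sex as a covariate, of 0.0042. Notch4 was between 146 ± 18.8 in WSB/EiJ and 259 ± 28.6 in DBA/2J (adjusted p = 0.775), and Jag2 between 180 ± 55.5 in WSB/EiJ and 339 ± 65.0 in C57BL/6J (adjusted p = 0.337). The male WSB/EiJ mean was thus the highest for Notch1 and the lowest for Notch4 and Jag2, none past the threshold. In the female libraries the WSB/EiJ mean was the highest for Notch1 (1195 CPM, n = 2) but also for Jag2 (381 CPM). There the lowest Notch4 mean was that of 129S1/SvImJ (166 CPM), with 184 CPM in WSB/EiJ. Jag1 means ran from 91.3 ± 29.5 to 122 ± 48.0 CPM, Rbpj from 28.4 ± 9.62 to 44.5 ± 12.4, Hey1 from 43.1 ± 18.6 to 74.8 ± 3.05 and Hes1 from 18.7 ± 5.39 (DBA/2J) to 50.1 ± 35.4 (NOD/ShiLtJ).

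Of the 58 other pathway genes, 1 passed between male strains, beside 1.76% of all genes tested. This was Notch3, the mural receptor, with an adjusted p of 0.00219 (edgeR's quasi-likelihood test). Its 4 WSB/EiJ libraries had 529 and 223 CPM in cortex and 607 and 776 CPM in hippocampus, a mean of 534 ± 231, against 381 ± 91.4 in NOD/ShiLtJ and means of 213 to 294 in the others. The summed level of the 10 pericyte markers was 7098 to 9549 CPM in male WSB/EiJ, 5714 to 8375 in NOD/ShiLtJ and 2141 to 2986 in CAST/EiJ, with the others between 2872 and 7372. With the astrocyte and pericyte marker means as covariates, an alternative chosen after seeing the data, the adjusted p of Notch3 was 0.748 and that of Dll4 0.00214. Without the WSB/EiJ hippocampus high library, the one with the smallest total, that of Notch3 was 0.0743.

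Wild-derived and long-inbred strains were then set against each other over all 43 libraries. Notch1 and Dll4 were higher in the wild-derived strains. Of all genes tested, 0.749% passed, and 0.508% were higher in the wild-derived strains. Notch1, the chief endothelial receptor, had a lowest, median and highest value of 572, 763 and 1236 CPM in the 12 wild-derived libraries and of 323, 624 and 771 CPM in the 31 long-inbred libraries. Here 6 wild-derived libraries lay above every long-inbred library, and 14 long-inbred libraries lay below every wild-derived one. The log2 fold change was 0.47 (SE 0.12), with an adjusted p of 0.0330 (edgeR's quasi-likelihood test). Dll4 had 129, 186 and 433 CPM in the wild-derived and 36.7, 106 and 302 CPM in the long-inbred libraries. All 12 wild-derived libraries were above the long-inbred median, and 20 of 31 long-inbred libraries were below the wild-derived minimum. Its log2 fold change was 0.86 (SE 0.19), with an adjusted p of 0.00886 (edgeR).

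These differences were between 2 strains and 5. Within the male libraries, means were 745 ± 139 against 620 ± 90.3 CPM for Notch1 and 185 ± 36.6 against 117 ± 45.6 for Dll4, and in the female libraries 945 ± 294 against 527 ± 155 and 260 ± 117 against 114 ± 73.8. In the male libraries alone, neither passed (log2 fold change 0.25, adjusted p = 0.837 for Notch1; 0.64, adjusted p = 0.255 for Dll4; edgeR). Within cortex the adjusted p was 0.421 for Notch1 and 0.170 for Dll4, and within hippocampus 0.824 and 0.473. Without WSB/EiJ, Notch1 differed by 0.20 on the log2 scale (adjusted p = 0.876) and Dll4 by 0.79 (adjusted p = 0.151). The CAST/EiJ means of Notch1 were 667 CPM (male) and 694 CPM (female). The highest long-inbred means were 685 CPM (male C57BL/6J) and 692 CPM (female NOD/ShiLtJ). With the astrocyte and pericyte marker means as covariates, an alternative chosen after seeing the data, Notch1 differed by 0.37 (adjusted p = 0.160, edgeR). Dll4 differed by 0.83 in that fit (adjusted p = 0.0177, edgeR). With counts of the male libraries summed to 1 value per strain, an alternative added once the data had been seen, Notch1 and Dll4 had log2 fold changes of 0.29 and 0.66 (adjusted p = 0.871 for both). The sign stayed positive in all 20 alternatives for both genes.

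The remaining members did not pass for origin with edgeR. Log2 fold changes were -0.17 (SE 0.15) for Notch4, 0.89 (SE 0.65) for Dll1, 0.23 (SE 0.21) for Jag1, -0.31 (SE 0.14) for Jag2, -0.77 (SE 0.28) for Egfl7 and 0.33 (SE 0.27) for Hes1. Egfl7 (adjusted p = 0.334) and Jag2 (adjusted p = 0.595) had unadjusted p-values of 0.0077 and 0.028 (edgeR), where 7.01% of all genes were under 0.05. Jag2 passed with DESeq2 (log2 fold change -0.39, adjusted p = 0.0188), which called 1.36% of all genes. Egfl7 passed with edgeR's default deviances (adjusted p = 0.0316), a setting that called 6712 of 29120 genes. The median over the 10 members was 0.32, against -0.38 over all genes tested with edgeR; with DESeq2 the median over all genes was 0. Genes tested needed 0.5 CPM in 1 library only. These medians, and those given below, therefore do not compare genes of like level. None of the 58 other pathway genes passed; Notch3 came nearest, with 404 ± 217 against 253 ± 94.2 CPM, a log2 fold change of 0.67 (SE 0.19) and an adjusted p of 0.0631 (edgeR). Notch3 passed in 5 of 20 alternatives, among them without CAST/EiJ (1.16, adjusted p = 0.000916) and without NOD/ShiLtJ (0.80, adjusted p = 0.0172), but without WSB/EiJ its log2 fold change was -0.08 (adjusted p = 0.949).

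**Figure D3:**
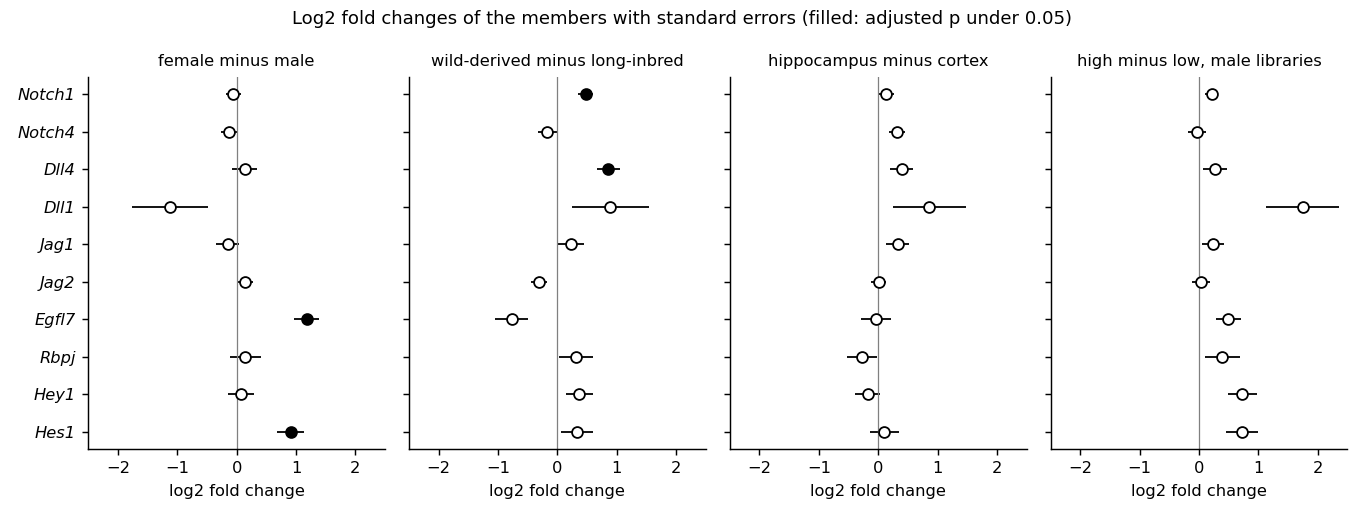
Log2 fold change of each member with its SE in the comparisons of sex, origin, region and, in male libraries, title tag. Filled points are members past the adjusted p of 0.05: Egfl7 (1.18) and Hes1 (0.91) for sex, Notch1 (0.47) and Dll4 (0.86) for origin, and none for region or tag.

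Between the sexes, Egfl7 and Hes1 were higher in female libraries, and no member was lower. Over all genes tested 2.85% passed, and 2.56% were higher in female libraries. Egfl7 had a lowest, median and highest value of 110, 251 and 803 CPM in the 16 female libraries and of 33.7, 120 and 446 CPM in the 27 male libraries. The groups overlapped: 4 female libraries were above every male library, and 12 male libraries were below every female one. The log2 fold change was 1.18 (SE 0.21), with an adjusted p of 6.7e-05 (edgeR's quasi-likelihood test). Hes1, a repressor that Notch induces directly, had 27.05, 53.6 and 197 CPM in female and 13.8, 31.6 and 99.3 CPM in male libraries. All but 1 of the female libraries, 15 of 16, were above the male median. Its log2 fold change was 0.91 (SE 0.23), with an adjusted p of 0.00972 (edgeR).

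The rRNA-like share separates the sexes, so a difference with sex and one with this share cannot be told apart. Library totals and the tag also differed with sex, and the part of depth in these differences was not tested. Egfl7 had 404 ± 223 CPM in the 11 female libraries with a lower share and 125 ± 12.8 CPM in the 5 with a higher share, against 139.7 ± 79.8 CPM in the male libraries. Hes1 had 71.2 ± 53.0 and 69.5 ± 21.01 CPM in these groups of female libraries and 37.6 ± 19.9 CPM in the male libraries. The female libraries with a higher share were thus at the male level for Egfl7 and above the male mean for Hes1. With the share as a covariate, the log2 fold change of Egfl7 was -0.18 (SE 0.42, adjusted p = 0.957) and that of Hes1 1.6 (SE 0.47, adjusted p = 0.121; edgeR). Without the 5 female libraries with a higher share they were 1.51 (adjusted p = 1.1e-07) and 0.90 (adjusted p = 0.0333). Summed endothelial markers were 11184 to 21901 CPM in female and 13711 to 21745 CPM in male libraries.

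**Figure D4:**
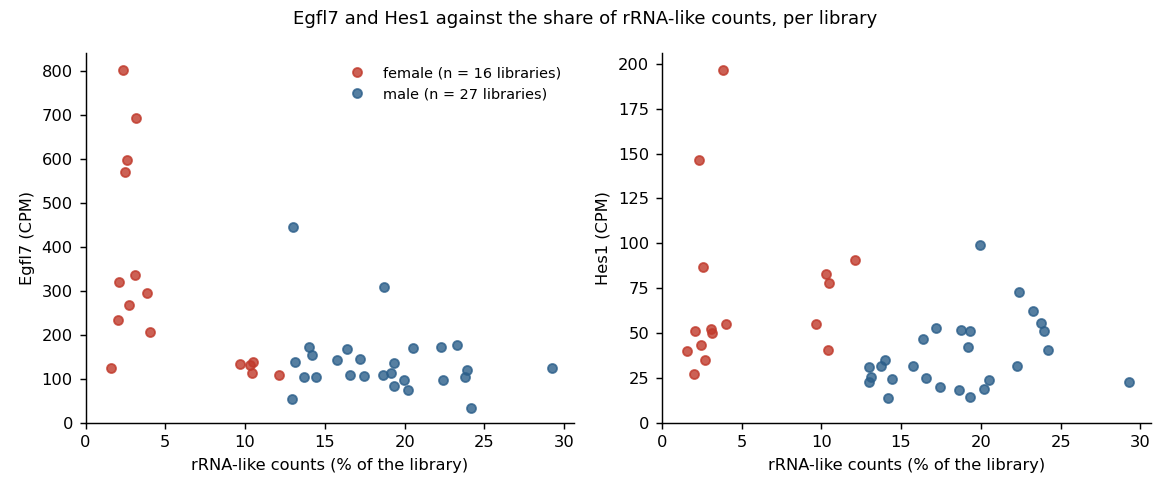
Egfl7 and Hes1 in CPM against the rRNA-like share of counts in percent, by library, female in red and male in blue. The 5 female libraries at 9.66% to 12.1% had a mean of 125 CPM for Egfl7 and 69.5 CPM for Hes1.

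Strain by strain, the female mean of Egfl7 was above the male mean in 5 of 7 strains. The ratio was 8.07 in DBA/2J, which rests on 1 female library at 803 CPM, 3.52 in C57BL/6J, 2.11 in WSB/EiJ, 1.41 in CAST/EiJ and 1.14 in 129S1/SvImJ, the strain with most female libraries. In NOD/ShiLtJ and A/J it was 0.978 and 0.888. Hes1 had a higher female mean in 6 of 7 strains, by 1.23-fold in NOD/ShiLtJ to 7.84-fold in DBA/2J, with a ratio of 0.977 in 129S1/SvImJ. Without DBA/2J the log2 fold change of Hes1 was 0.63 (adjusted p = 0.198) and without WSB/EiJ 0.69 (adjusted p = 0.12; edgeR). Within cortex Egfl7 differed by 1.03 (adjusted p = 0.0585) and Hes1 by 0.72 (adjusted p = 0.570), and within hippocampus by 1.34 (adjusted p = 0.00344) and 1.08 (adjusted p = 0.0295). In the libraries tagged high alone, Egfl7 differed by 0.97 (adjusted p = 0.0442) and Hes1 by 0.65 (adjusted p = 0.275; edgeR).

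The receptors, the ligands, Rbpj and Hey1 did not pass the test between the sexes. Log2 fold changes, female over male, were -0.06 (SE 0.12) for Notch1, -0.13 (SE 0.14) for Notch4, 0.13 (SE 0.21) for Dll4, -0.15 (SE 0.20) for Jag1 and 0.15 (SE 0.13) for Jag2. Rbpj had 0.15 (SE 0.26), and Hey1, the other target, 0.07 (SE 0.22). Dll1, the sparsest member, had -1.12 (SE 0.64). This does not show that the sexes were alike. The median over the members was 0.10, against -0.12 over all genes tested. Of the 58 other pathway genes, 3 passed, beside 2.85% of all genes, and all were higher in female libraries: Spen, a corepressor of Rbpj (357 against 234 CPM, log2 fold change 0.61, SE 0.14), Snw1, a coactivator (102 against 60.2 CPM, 0.76, SE 0.19), and Fbxw7, which marks the Notch intracellular domain for breakdown (99.7 against 62.9 CPM, 0.66, SE 0.20). This count was 0 with the rRNA-like share as a covariate, in cortex and without 129S1/SvImJ, and 1 in libraries tagged high, in hippocampus, with DESeq2 size factors and with astrocyte and pericyte marker means as covariates. Over all 58, the median was -0.11 and 26 were above 0, as were 13315 of the 29120 genes tested.

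Between hippocampus and cortex, no member passed the test, and 0.0755% of all genes did. Notch4 came nearest: its lowest, median and highest values were 107, 223 and 285 CPM in the hippocampus and 103, 160 and 283 CPM in the cortex. The ranges overlapped almost whole. Its log2 fold change was 0.32 (SE 0.14), with an unadjusted p of 0.0204 and an adjusted p of 0.669 (edgeR); it was positive in 16 of 16 alternatives, from 0.25 to 0.38. Within 18 sets of libraries matched for strain, sex and tag, the hippocampus was higher in 13 for Notch4 (mean difference in log2(CPM + 1) of 0.33 ± 0.42, SD), in 14 for Notch1 (0.16 ± 0.28), in 12 for Dll4 (0.27 ± 0.43) and in 9 for Jag1 (0.41 ± 1.12). Dll4 had 161 ± 85.1 CPM in the hippocampus and 123 ± 59.8 CPM in the cortex, a log2 fold change of 0.39 (SE 0.20). Hey1 (-0.18, SE 0.21), Rbpj (-0.27, SE 0.26) and Egfl7 (-0.04, SE 0.25) had the opposite sign. At an unadjusted p under 0.05, 1 member and 1 of the 58 other pathway genes were counted, beside 5.6% of all genes; by DESeq2, no member passed and 0.209% of all genes did.

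In the male libraries, the tag high or low gave no member past the threshold with edgeR, while 1.07% of all genes passed; 4 members had an unadjusted p under 0.05, as had 8.04% of all genes, and DESeq2 called 2 members and 2.29% of all genes. Hey1, a repressor that Notch induces in arterial EC, had 17.8, 73.0 and 100.2 CPM as its lowest, median and highest values in the high libraries and 15.9, 37.5 and 86.1 CPM in the low ones. Of the 14 high libraries, 13 were above the median of the low ones. The log2 fold change was 0.73 (SE 0.24), with an adjusted p of 0.163 with edgeR and 0.0321 with DESeq2. Hes1 had 46.4 ± 21.8 against 28.2 ± 12.7 CPM (0.73, SE 0.27; adjusted p = 0.299 with edgeR and 0.0448 with DESeq2). Dll1 had 24.0 ± 30.8 against 7.03 ± 8.14 CPM (1.75, SE 0.62; adjusted p = 0.242), and Egfl7 161 ± 102 against 116 ± 35.4 CPM (0.50, SE 0.22; adjusted p = 0.484). Of the 10 members, 9 had a log2 fold change above 0, as had 14437 of the 27824 genes tested. The median over the members was 0.33, against 0.05 over all genes. Without WSB/EiJ, Hey1 passed, with a log2 fold change of 0.94 and an adjusted p of 0.0158 (edgeR).

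Markers of other cells moved with the tag. In high and low male libraries the summed endothelial markers had medians of 18787 and 14971 CPM (ranges 13711 to 21745 and 13788 to 16922). The astrocyte markers had medians of 4174 and 6280 CPM (1974 to 8264 and 3762 to 22104), and the neuron markers of 186 and 441 CPM (153 to 561 and 273 to 780). The 7 arterial markers had medians of 326 and 239 CPM (177 to 532 and 160 to 351). Their part in the differences of Hey1, Hes1 and Dll1 was not tested. In 13 sets matched for strain and region, the high library was above the low one in 11 for Hey1 (mean log2 difference 0.76 ± 1.04, SD), 11 for Dll1 (1.9 ± 2.53), 11 for Notch1 (0.24 ± 0.21) and 10 for Hes1 (0.68 ± 0.74). The differences of Dll1 ran from -0.61 to 6.96 and include libraries with 3 or fewer counts of it. Of the 58 other pathway genes, 1 passed, beside 1.07% of all genes: Mib1, the ubiquitin ligase that drives ligand uptake, was lower in the high libraries (212 ± 42.6 against 341 ± 62.5 CPM, log2 fold change -0.68, SE 0.13, adjusted p = 0.00236 with edgeR). With the astrocyte and pericyte marker means as covariates, in cortex alone and in hippocampus alone, 0 of the 58 passed.

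**Figure D5:**
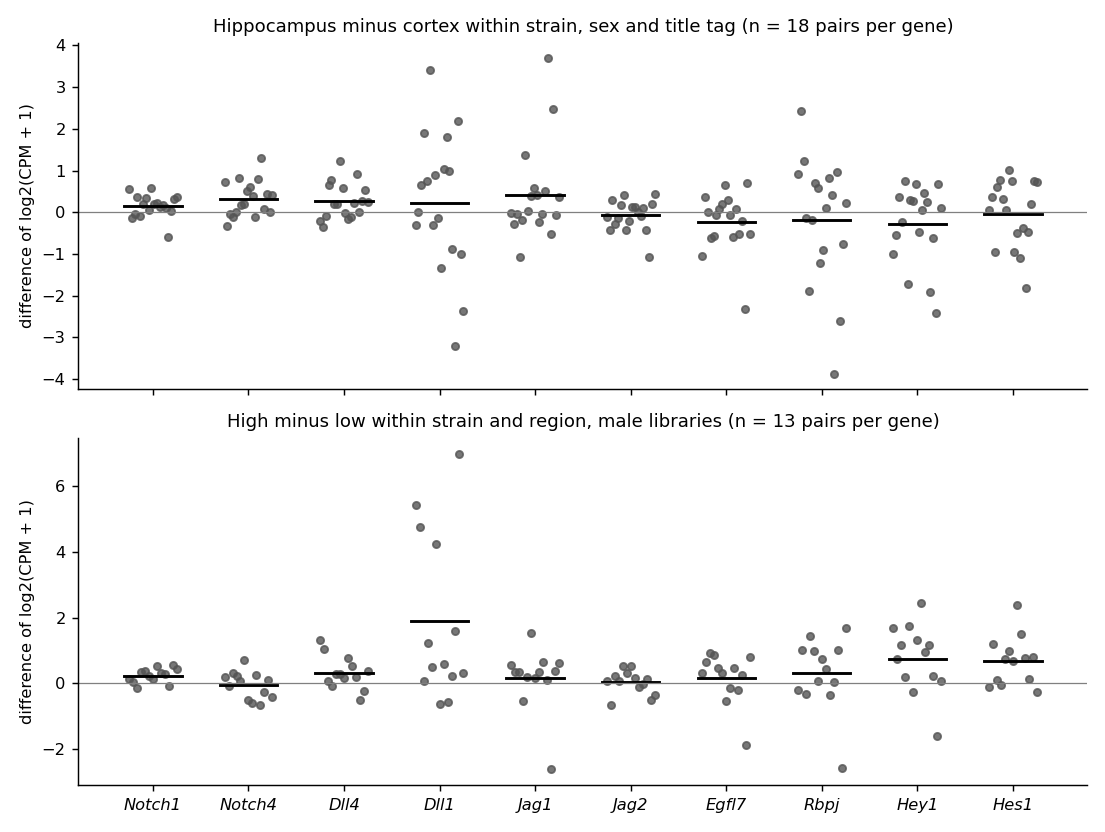
Difference in log2(CPM + 1) of each member between hippocampus and cortex within 18 matched sets of libraries, and between high and low within 13 matched sets of male libraries, 1 point a set, with the mean as a line. Notch4 was above 0 in 13 of 18 sets for region and Hey1 in 11 of 13 for tag.

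Neither the interaction of sex with region nor that of sex with origin passed for a member (edgeR's quasi-likelihood test), where 0.00343% and 0.0206% of all genes passed. For sex and origin, Notch1 (0.58) and Jag2 (0.60 on the log2 scale) had unadjusted p-values of 0.0199 and 0.0299 and an adjusted p of 1; 3.94% of all genes were under an unadjusted 0.05. For sex and region, 0 members and 3.7% of all genes were. DESeq2 called no member in either interaction, and 0.0824% and 0.0687% of all genes.

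Beside the members, the table holds the rest of the pathway at widely different levels. Adam10, the protease of the first cut, averaged 282 CPM, and Mib1 260 CPM. The coregulators Ncor1, Crebbp, Spen and Ep300 averaged 368, 358, 279 and 222 CPM. Among the other targets, Heyl had 45.3, Nrarp 20.8, Hey2 14.9 and Hes5 4.08 CPM. Some ligands and targets were near the floor: Dll3 (0.0821 CPM) had 0 counts in 41 libraries, Dlk1 (0.148 CPM) in 39 and Hes7 (0.382 CPM) in 38.

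The patterns of the members across the 43 libraries were compared with those of 8679 genes by Pearson's r on log2 CPM centred within each sex. The libraries also differ in depth, region, strain and rRNA-like share, and r is given as a description. Centring within sex does not remove the split of the female libraries by rRNA-like share. The genes most like Notch1 were Pcdh1 (0.79), Sema7a (0.78) and Insr (0.76). Dll4 was most like Slc39a10 (0.73), Slc3a2 (0.70) and Slco1c1 (0.69), of which the last is a thyroid hormone transporter of brain EC. For the remaining receptor and ligands, the leading genes were Mlh3, Tm9sf1 and Impdh1 for Notch4 (0.64 to 0.58), Sgk3, Tm9sf1 and Fli1 for Jag1 (0.74 to 0.71), Piezo1, Plec and Abca3 for Jag2 (0.70 to 0.69), and Rragc, Plin2 and Nudt16l1 for Dll1 (0.56 to 0.53). Egfl7 was most like Rbm39 (0.75), Malat1 (0.70) and Akap8 (0.70), of which Malat1 is a nuclear noncoding RNA. Like Egfl7, these genes also passed the test between the sexes. The targets were led by Stat3, Hps6 and Irf2bp1 for Hey1 (0.68 to 0.65) and by Zfp36l1, Tcf7 and Rac1 for Hes1 (0.64 to 0.63), and Rbpj by Zfp212, Tpbg and Ddx3y (0.61 to 0.59). Some of these values moved with the measure: Spearman's rho was 0.36 for Rbpj with Zfp212, 0.42 for Dll1 with Rragc and 0.56 for Jag2 with Piezo1, and without centring within sex r was 0.43 for Hes1 with Zfp36l1 and 0.03 for Rbpj with Ddx3y, a Y-linked gene. Among the members themselves, r was highest for Dll4 with Hes1 (0.62), Notch1 with Dll4 (0.58) and Notch4 with Jag1 (0.56), and lowest for Dll1 with Jag2 (-0.43) and Dll1 with Egfl7 (-0.41); Hey1 with Hes1 had 0.44. All values of r for Dll1 include the 12 libraries with 3 or fewer counts of it.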

How the data were processed

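Single-end RNA-seq libraries were made from sorted brain EC with a stranded total RNA kit after depletion of ribosomal RNA. The authors processed the reads with bcbio-nextgen on mm10; their processing notes name HISAT2 2.1.0, SAMtools 1.9 and Subread 1.4.4 (featureCounts). The deposited values are raw counts per gene, with 43 columns, each matched to a library by its title. Whether counting used strand is not given in the sources used here, so reads of Egfl7 and genes that overlap it on the other strand may be mixed. Gm20532 overlaps Egfl7 on the same strand, where a strand setting would not separate the reads. Gene positions are from GENCODE M21 on GRCm38 (54495 of 54532 IDs matched), and sequences are from RefSeq tables of GRCm38.p6.

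From the counts, CPM were computed with TMM scaling. Genes were kept at 0.5 CPM or more in at least 1 library (29120 genes; 27824 in male libraries). Sex, origin and region were each compared over 43 libraries, strain and tag in the 27 male libraries, and the interactions of sex with region and with origin over 43. The test was edgeR's quasi-likelihood test (edgeR 4.0.16, R 4.3.3) with Benjamini-Hochberg adjustment over all genes tested and a threshold of 0.05; DESeq2 1.42.0 was an alternative. Scripts were tested on simulated data. In fits with covariates, genes whose fitted value exceeded 5 times their largest count were left out. Alternatives changed the scaling, filter, tool, covariates, libraries and strains. Figures were drawn with Python 3.11.15.

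The members and gene lists were chosen with earlier results of these data known. Named are all 10 members, Notch2, Notch3 and other pathway genes past the threshold (at most 5 a comparison). The 3 genes most like each member (mean of at least 10 CPM) are also named. So are the microRNA genes within the bounds of Egfl7 and the 3 rRNA-like genes. Levels of further pathway genes were picked after their values were seen. Counting error is largest for Dll1: 3 counts are the floor below which a level is not interpreted.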

Additional observations from a re-analysis of the deposited data

Results flagged for a closer look

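3 values lay far from the other libraries of their strain and sex, by Dixon's ratio at the 95% level; 70 such groups were tested, and chance gives about 1 in 20. Rbpj had 82.9 CPM in the female 129S1/SvImJ cortex library tagged low, against 18.7 to 35.8 CPM in the other libraries of that strain and sex (n = 6). Rbpj also had 61.1 CPM in the male DBA/2J cortex library tagged high, against 15.7 to 21.8 CPM in the others (n = 4). Notch1 had 607 CPM in the male WSB/EiJ hippocampus library tagged low, against 875 to 920 CPM in the others (n = 4).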

How the results depend on the processing

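No pairing by mouse was possible because the labels do not say which libraries share a mouse and the groups' replicate numbers only name libraries. Matching was by strain, sex, region and tag alone. In the comparison of sex, 830 genes and 2 members passed. The counts of genes were 10473 with edgeR's default deviances, 59 with the rRNA-like share as a covariate, 474 in libraries tagged high, 247 in cortex, 318 in hippocampus, 451 without 129S1/SvImJ and 514 without DBA/2J. The members passing were 1 with DESeq2 size factors, in libraries tagged high, without DBA/2J and without WSB/EiJ, and 0 with the share as a covariate and in cortex; with that covariate Egfl7 turned to -0.18. For origin, 218 genes and 2 members passed. The genes were 395 with DESeq2, 6712 with default deviances, 125 in male libraries, 45 in cortex, 78 in hippocampus and 12 with summed counts. The members were 1 with DESeq2 size factors, with no filter, without A/J, CAST/EiJ or NOD/ShiLtJ and with astrocyte and pericyte marker means as covariates, and 0 in male libraries, in cortex, in hippocampus, without 129S1/SvImJ, DBA/2J or WSB/EiJ and with summed counts. For region, 22 genes became 61 with DESeq2, 8023 with default deviances, 60 with strain, sex and tag as covariates and 11 without NOD/ShiLtJ. Between male strains, 490 genes became 931 with DESeq2, 797 with default deviances, and 781 and 756 in all 43 libraries without and with sex as a covariate. With the rRNA-like share as a covariate 1 member passed. Leaving out each male library in turn gave 411 to 519 genes and 1 to 2 members. For tag, 297 genes became 638 with DESeq2, 8327 with default deviances, 548 with strain and region as covariates, 33 in cortex, 9 in hippocampus, 146, 160, 142 and 193 without A/J, C57BL/6J, CAST/EiJ and NOD/ShiLtJ, and 22 with the marker means. Members passing were 2 with DESeq2, 2 with default deviances (Dll1 and Hey1) and 1 without WSB/EiJ. For sex and region, 1 gene became 24 with DESeq2, 2 with no filter, 0 with filterByExpr and 956 with default deviances; for sex and origin, 6 became 20, 0 with DESeq2 size factors, 10, 0 and 380. The cause of these shifts was not tested, beyond the smaller number of libraries where strains or a region were left out. The marker means, the summed counts and leaving out the WSB/EiJ male hippocampus library tagged low were chosen after seeing the data.

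Egfl7 passed for sex in 18 of 20 alternatives and Hes1 in 14, Dll4 for origin in 12 and Notch1 in 8. Between male strains Dll4 and Egfl7 each passed in 36 of 37, Jag2 passed with DESeq2 (adjusted p = 0.00584) and Notch1 in all 43 libraries. Of the genes called for sex, 89.8% were higher in female libraries, against 73.5% with DESeq2 size factors and 60.7% with DESeq2, and the median of all genes was -0.12 and, with those size factors, -0.24; for origin it was -0.38 and -0.43. For origin, 148 genes were higher and 70 lower in wild-derived strains, against 168 and 227 with DESeq2. Depth limits Dll1 most, with 3 counts or fewer in 12 libraries.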
